A study of Rattus norvegicus with 28 samples.

Results

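The 150 genes described here were high in samples exposed to uninjured spinal cord at weeks 3 and 4 and low both after exposure to injured cord at the same weeks and in culture. They were chosen from the 32545 genes of the deposited table by their measured levels. Levels are given as CPM, the count of a gene divided by the total of its library and multiplied by 1000000. For each gene the smaller of the uninjured week 3 and week 4 group means was divided by the largest of the means of culture, injured week 3 and injured week 4, after 1 CPM had been added to every mean. A ratio of at least 2, an uninjured level of at least 10 CPM on that scale and a culture level below 0.5 of it were required. These limits were met by 664 genes, and the 150 with the largest ratios were taken. One library, injured week 3 replicate 3, was left out of the choice.

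The series sequenced RNA of rat samples that carry the label neural progenitor cells, with 4 libraries in each of 7 groups. Exposure is labelled as spinal cord injury at 2, 3 or 4 weeks, as spinal cord without mention of injury at 2, 3 or 4 weeks (read here as uninjured), or as the culture condition, and the title concerns transplantation of neural progenitor cells into spinal cord injury. The labels do not give the strain, the age, the event from which the weeks are counted, the way of exposure, whether cells were separated from cord tissue, or whether each library had its own animal or culture. In samples of this kind, fewer cells of a type and less RNA per cell cannot be told apart, nor can RNA of surrounding tissue be told apart from RNA of the cells. Neural progenitor cells divide in culture and can give rise to neurons, astrocytes and oligodendrocytes when they leave it, a change in which genes silent in the dividing cell are switched on. Injured cord differs from intact cord as a surrounding for such cells through cell death, inflammation and scar formation.

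None of the 150 identifiers could be matched to a gene symbol, so that 0 of 150 have a known function, chromosome or sequence here. Marker lists of cord cell types, the pathway lists and a promoter search could therefore not be applied, and the labelled cell type was not checked against its markers. The genes are given below by their rank in the ratio that chose them, and 4 of them by identifier.

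The injured week 2 libraries held 84532 to 446331 counts and the uninjured week 2 libraries 189626 to 426992, while the other 20 libraries held 2605188 to 6908508. The library left out, injured week 3 replicate 3, detected 11544 genes, against 15292 to 15583 in its 3 companions.

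The main result on samples that took no part in the choice was that the 150 genes were not low in injured cord at week 2. Together they held 1.79%, 1.89%, 1.94% and 2.20% of all counts in the 4 injured week 2 libraries, against 1.65%, 1.32%, 1.69% and 2.07% in the 4 uninjured week 2 libraries. The ranges of the groups overlapped, and the means were 1.96% ± 0.175 and 1.68% ± 0.306 (SD, n = 4 each). The shallowest library, with 1515 counts on these genes, gave a share of 1.79% with an exact (Clopper-Pearson) 95% interval from 1.70% to 1.88%, which covers counting error only. With TMM-scaled library sizes the share of this library was 1.27%, outside that interval and the lowest of the week 2 libraries.

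At weeks 3 and 4 the same sum was low in injured exposure, as the choice of the genes requires. It was 0.0486%, 0.0406% and 0.0385% in the 3 injured week 3 libraries used, against 1.93%, 1.62%, 1.52% and 1.54% in uninjured week 3. At week 4 it was 0.1297%, 0.0906%, 0.0791% and 0.0837% in injured exposure, against 1.82%, 1.72%, 1.97% and 1.70% in uninjured exposure. Culture libraries held 0.115%, 0.150%, 0.135% and 0.174%. The injured mean was 0.0257 of the uninjured mean at week 3, 0.0532 at week 4 and 1.16 at week 2. The description of these genes as lost after injury thus holds for the 2 later weeks that defined it and not for the libraries labelled week 2. The labels were taken as given, and nothing used here checked the exposure of the week 2 libraries independently.

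**Figure D1:**
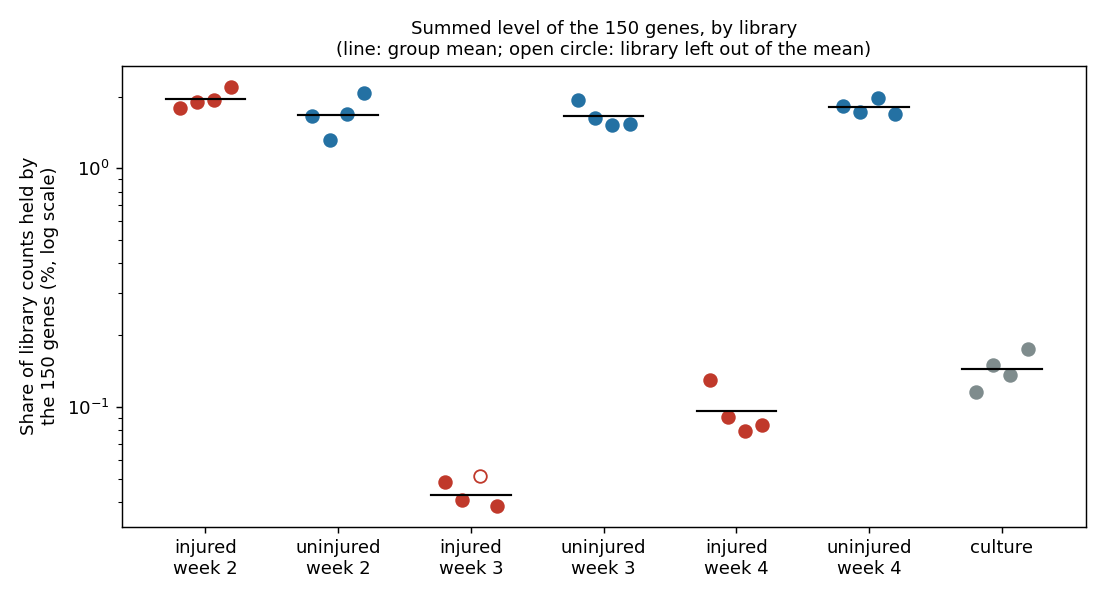
Share of each library's counts held by the 150 genes (log axis), for injured (red), uninjured (blue) and culture (grey) libraries, with the group mean as a line and injured week 3 replicate 3, left out of the mean, as an open circle. The 4 injured week 2 libraries lie between 1.79% and 2.20%, beside the uninjured ones, while injured weeks 3 and 4 lie at 0.1297% or below.

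The library that had been left out was low on these genes as well. Injured week 3 replicate 3 had 0.0512% of its counts on the 150 genes, above the other 3 libraries of injured week 3 and far below the lowest uninjured week 3 library at 1.52%. With TMM-scaled library sizes its share was 0.0284%, below the 0.0389% to 0.0508% of its companions, so its place within the group depends on the scaling. For 145 of the 150 genes it was below every uninjured week 3 library, against 33.7% of the 18482 genes with a mean of at least 1 CPM in any group. For 141 it was below 0.5 of the lowest of them, against 29.4% of those genes. The uninjured side of these counts was set by the choice of the genes, and the library detected fewer genes than its companions. The part of that lower detection in the counts was not tested. It had 0 counts for 55 of the genes, against 42, 35 and 43 in its companions. It lay above all 3 companions for 63 genes, within their range for 54 and below them for 33. Its part in the choice was small, since all but 1 of the 150 genes were chosen again when it was included.

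Single genes followed the sum at week 2. In injured week 2, all 150 genes had a mean above the means of culture and of injured weeks 3 and 4, which was so for 34.5% of the 18482 genes with a mean of at least 1 CPM in any group. In uninjured week 2 the count was also 150, against 40.6% of those genes. For 96 genes every injured week 2 library lay above every culture and every injured week 3 and 4 library, against 3.37% of the 18482 genes. For uninjured week 2 libraries this held for 110 of the 150 genes, against 3.61%. The low side of these counts was set by the choice of the genes, the week 2 side was not. At week 2 no gene of the 150 was without counts in either group, although counts were few, with a median over the 4 libraries of 61 in injured and 44 in uninjured exposure.

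The median level over the 150 genes was 46.6 CPM in injured week 2 and 41.9 CPM in uninjured week 2. At week 3 the median was 0.794 CPM after injured and 42.2 CPM after uninjured exposure, at week 4 it was 0.963 CPM after injured and 32.1 CPM after uninjured exposure, and in culture it was 1.04 CPM. The median difference between injured and uninjured means, as log2(mean CPM + 1), was 0.21 at week 2, with quartiles at -0.21 and 0.56, against -0.03 over all 18482 genes. It was -4.31 at week 3 and -3.95 at week 4, where the choice fixed the direction, against 0.00 and -0.19 over all genes.

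**Figure D2:**
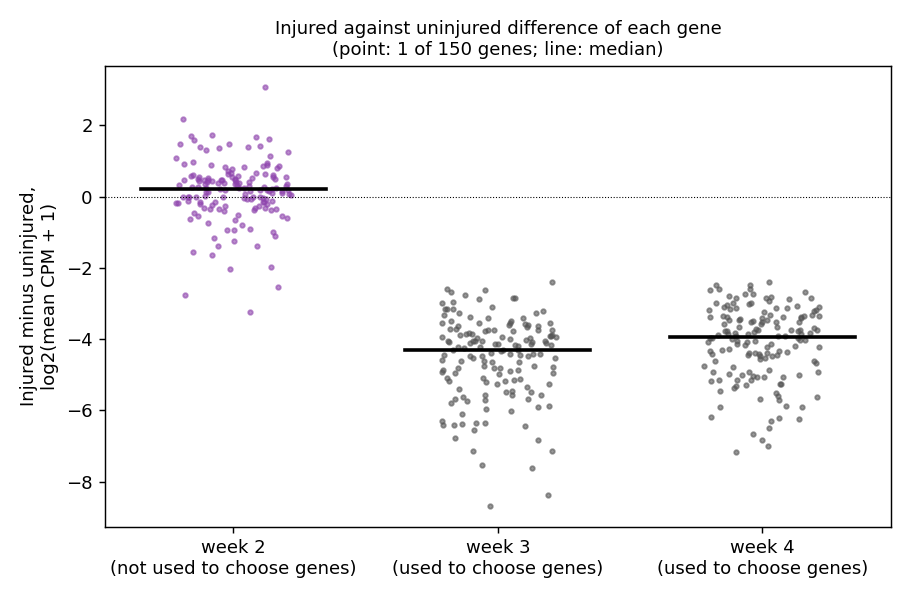
Injured minus uninjured difference of each of the 150 genes in log2(mean CPM + 1), by week, with the median as a line. Week 2, which took no part in the choice of genes, centres on 0.21, and weeks 3 and 4, which defined the genes, centre on -4.31 and -3.95.

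Injured and uninjured week 2 were compared gene by gene in a fit of these 8 libraries alone (edgeR quasi-likelihood test, Benjamini-Hochberg adjusted over all 4992 genes kept by the low count filter). Of the 150 genes, all but 49 passed the filter and 0 were called at an adjusted p under 0.05, as were 0% of the 4992 genes. At an unadjusted p under 0.05, edgeR gave 4 of those that passed, 2 higher and 2 lower in injured exposure, against 2.7% of all genes tested. DESeq2, applied to 18255 genes without that filter, called 0 as well, among the 150 and over all genes. It gave 6 of the 150 at an unadjusted p under 0.05, and the share over all its genes was not computed. The libraries of the 2 groups did not overlap for 1 gene higher and 1 gene lower in injured exposure, against 2.7% of all genes tested. A positive log2 fold change was found for 61 of the genes that passed and a negative one for 40, while 48.1% of all genes tested had a positive one.

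The absence of calls at week 2 does not show equal levels, since the spread was wide. The median standard error of a log2 fold change was 0.68 over the genes of the 150 that were tested, and their 95% intervals ran from -1.08 to 1.24 in the median. For 84 of them the lower limit of the interval lay above -2, so that a 4-fold fall in injured exposure lay outside it. The same held for 4011 of all 4992 genes tested, a similar share, so this count does not set these genes apart. Fits that took the spread from the deeper groups as well called more. With 27 libraries in 1 fit, all 150 genes were tested and 4 were called by edgeR, 2 higher and 2 lower in injured exposure, against 3.37% of all genes tested. With all 28 libraries 2 were called, both lower, against 2.16%.

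A few genes departed from the rest at week 2. The gene ranked 68 had the lowest injured level relative to uninjured among the genes with at least 50 counts over week 2, with 9.14 CPM from 11 counts after injured exposure and 95.6 CPM after uninjured exposure. The fit put it at a log2 fold change of -3.58 (standard error 0.85), and its adjusted p of 0.338 in edgeR did not pass. The genes ranked 50 and 150 followed, at 10.6 and 21.3 CPM in injured against 44.3 and 65.0 CPM in uninjured exposure. The highest relative levels were those of the genes ranked 40, 91 and 144, with 31.6, 28.6 and 131.8 CPM in injured against 6.15, 8.20 and 39.7 CPM in uninjured exposure. These 6 were picked for these values. The genes ranked 40 and 91 did not pass the low count filter of the week 2 fit, and the other 4 were tested in it and not called.

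The order of levels among the 150 genes was partly shared by every pair of groups compared. Spearman's rho over the 150 genes was 0.834 between injured and uninjured week 2, 0.880 between injured week 2 and uninjured week 3, and 0.784 between injured week 2 and uninjured week 4. Between groups that differ in level it was 0.666 for injured against uninjured week 3, 0.708 for injured against uninjured week 4, 0.627 for injured week 3 against culture, 0.721 for injured week 4 against culture and 0.684 for uninjured week 4 against culture. It was 0.604 between injured week 2 and injured week 3 and 0.547 between injured week 2 and injured week 4. Against culture it was lower for injured week 2, at 0.526, and for uninjured week 3, at 0.576, than for the groups above. Among uninjured groups it was 0.900 between weeks 2 and 3, 0.819 between weeks 2 and 4 and 0.888 between weeks 3 and 4. These values describe 1 set of genes that shared libraries and a floor on uninjured levels, and gene length is part of every level.

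**Figure D3:**
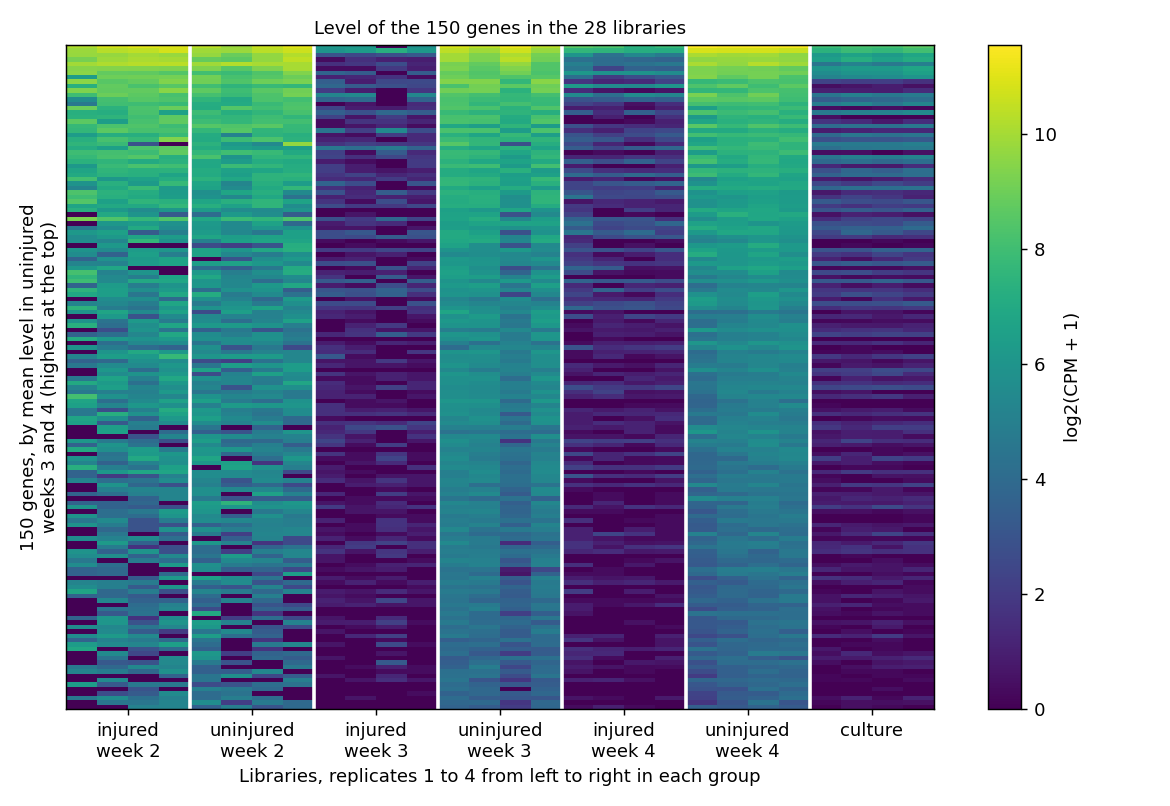
Level of the 150 genes, as log2(CPM + 1), in the 28 libraries, with genes ordered by their mean level in uninjured weeks 3 and 4. The injured week 2 block resembles the uninjured blocks in level and order, with more genes at 0 in its shallow libraries, and the injured week 3 and 4 blocks are low, as is culture.

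The gene with the largest ratio, 77.4, was ENSRNOG00000011154. Its level was 3.15, 0.872 and 2.54 CPM in the 3 injured week 3 libraries used, against 533, 554, 165 and 560 CPM in uninjured week 3. At week 4 it was 1.63, 0.505, 0.224 and 0.517 CPM in injured libraries, against 194, 198, 309 and 282 CPM in uninjured libraries. Culture libraries had 0.999, 0.948, 0.900 and 1.74 CPM. The groups that defined it did not overlap, and only 22 and 11 counts were left over injured weeks 3 and 4. At week 2 it stood at 627, 426, 432 and 717 CPM in injured libraries, against 406, 244, 386 and 531 CPM in uninjured libraries, which overlapped. In the week 2 fit its log2 fold change was 0.38 (standard error 0.30), with a 95% interval from -0.24 to 1.01.

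ENSRNOG00000045811 had the second largest ratio, 58.8. It had 3.73, 0.291 and 1.59 CPM in the 3 injured week 3 libraries used, against 219, 203, 114.13 and 177 CPM in uninjured week 3. In injured week 4 only 5 counts were found, 1 in replicate 2 and 4 in replicate 4, against 2427 counts in uninjured week 4. At week 2 its injured libraries had 248, 274, 240 and 419 CPM, against 200, 254, 218 and 126.56 CPM in uninjured libraries. The week 2 fit put its log2 fold change at 0.41 (standard error 0.38), with a 95% interval from -0.36 to 1.18.

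The ratios of the next 8 genes ran down to 31.5. The gene ranked 3 had means of 1.74 CPM after injured and 254 CPM after uninjured exposure at week 3, 0.769 and 158 CPM in the same order at week 4, and 0.0833 CPM in culture. At week 2 the same gene had 252 CPM after injured and 208 CPM after uninjured exposure. The gene ranked 10 had 2.39 CPM after injured and 203 CPM after uninjured exposure at week 3, and 214 and 171 CPM in the same order at week 2. Like the first pair, both were high in injured exposure at week 2 and close to 0 in it at week 3.

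At the limit of 150 the values changed little. The last 3 genes taken had ratios of 5.23, 5.21 and 5.17, and the next 3 had 5.15, 5.14 and 5.12. The gene ranked 150 had means of 1.89 CPM after injured and 26.8 CPM after uninjured exposure at week 3, 1.48 and 20.9 CPM in the same order at week 4, and 3.24 CPM in culture. The first gene not taken had 0.8293 CPM after injured and 18.98 CPM after uninjured exposure at week 3, 2.88 and 25.1 CPM in the same order at week 4, and 1.66 CPM in culture. The 150 genes are thus the upper end of a continuous range and not a separate class.

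All 150 genes passed the low count filter of a second fit, of the 19 libraries of culture and weeks 3 and 4 without injured week 3 replicate 3. They could pass through the uninjured groups alone, and these libraries had chosen them, so the counts of calls that follow are descriptions from which nothing is read. All 150 were called lower in injured than in uninjured exposure at week 3, beside 32.8% of the 13586 genes tested, and at week 4, beside 22.4% (edgeR adjusted p under 0.05). All 150 were called higher in uninjured week 3 than in culture, beside 34.8%, and in uninjured week 4 than in culture, beside 34.1%. The 4 comparisons share the uninjured groups. The median log2 fold change of this fit over the 150 genes was -6.11 between injured and uninjured exposure at week 3 and -5.22 at week 4, against 0.00 and 0.02 over all genes tested. For the many genes near 0 counts in injured exposure these fitted values depend on the prior count.

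The low levels in injured exposure were also set beside those in culture. In injured week 3, 16 of the 150 genes had 0 counts in all 3 libraries used, and 46 had at most 3. In injured week 4, 11 genes had 0 counts in all 4 libraries, and in culture 5 did. The libraries behind these numbers held 10076540 counts in injured week 3, 15973199 in injured week 4 and 23741368 in culture. Genes at 0 counts are therefore not compared at equal depth, and the part of depth was not tested. The fit called 13 genes higher and 33 lower in injured week 3 than in culture, beside 18.4% and 18.7% of all genes tested. The 13 rested on single libraries, with 3 higher without injured week 3 replicate 1, 5 without culture replicate 4 and 7 without culture replicate 2. In injured week 4 it called 22 higher and 28 lower than in culture, beside 27.3% and 25% of all genes.

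The 150 genes were then divided by their level in culture. These values are a description, since the same culture level divides the genes and is compared, which favours levels below culture in the highest class, and the choice of the genes used all 3 groups. At least 10 CPM in culture was measured for 22 of the 150 genes, with a median of 2.36 CPM in injured week 3, 8.71 CPM in injured week 4 and 27.6 CPM in culture. Of these 22, 21 had a mean below culture in injured week 3, beside 46.2% of all 8907 genes at that culture level, and 21 in injured week 4, beside 68.9%. At weeks 3 and 4 the same held for 36 and 41 of the 54 genes between 1 and 10 CPM in culture. For the 74 genes under 1 CPM it held for 28 and 27. The share over all genes was not computed for these classes, so nothing is read from their counts. For the 22 genes at 10 CPM or more in culture, the median level in injured week 3 was 1.07% of that in uninjured weeks 3 and 4. In injured week 4 it was 3.03%, and in culture it was 12.8%. At week 2 the median of these 22 genes was 250.0 CPM after injured and 248 CPM after uninjured exposure. The 74 genes under 1 CPM in culture had medians of 0.298 CPM in injured week 3, 0.413 CPM in injured week 4 and 0.254 CPM in culture. The 54 genes between these limits had medians of 1.495, 1.465 and 2.407 CPM in the same order of groups. Levels of different genes are compared here per count and not per length.

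**Figure D4:**
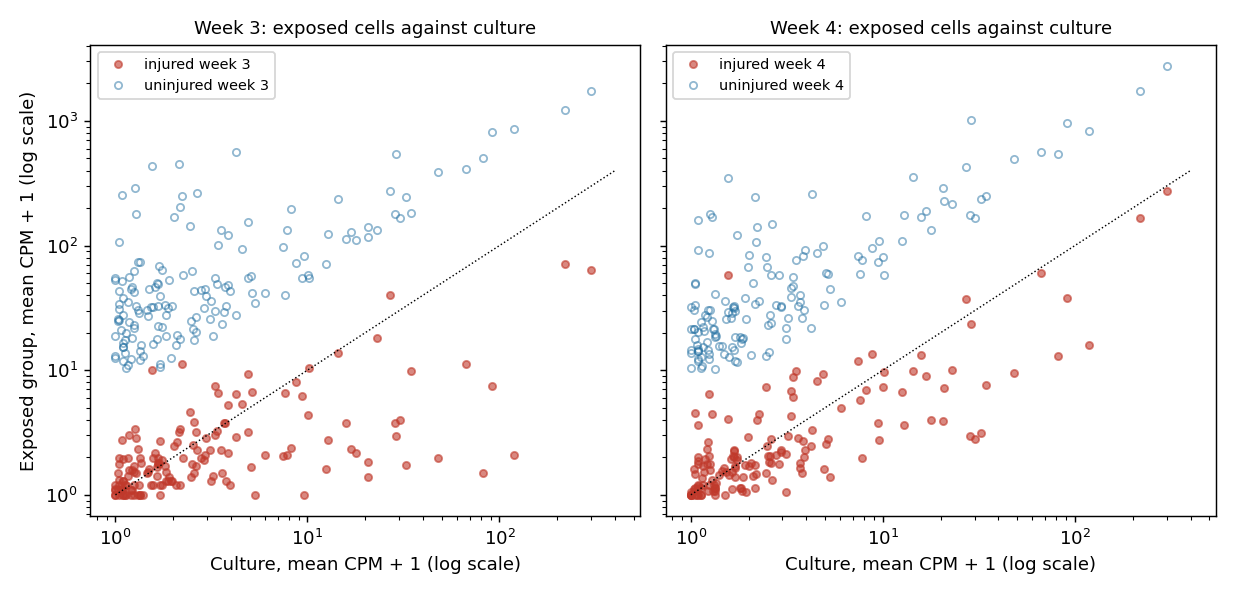
Mean CPM + 1 of each of the 150 genes in injured (red) and uninjured (blue, open) exposure at weeks 3 and 4, against its mean in culture, on log axes, with equality as a dotted line. Of the 22 genes with at least 10 CPM in culture, 21 lie below the line in injured week 3 and 21 in injured week 4.

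The 6 genes with the highest uninjured levels all belonged to those 22 genes. The gene ranked 136 was the highest, with means of 62.8 CPM after injured and 1724 CPM after uninjured exposure at week 3, 273.7 and 2754 CPM in the same order at week 4, and 299 CPM in culture. At week 2 it stood at 1742 CPM after injured and 1453 CPM after uninjured exposure. The gene ranked 138 had 70.3 CPM after injured and 1223 CPM after uninjured exposure at week 3, 165.6 and 1732 CPM in the same order at week 4, and 218 CPM in culture. A few genes carried much of the sum. The 5 most abundant of each group, which can differ between groups, held 32.4% of its counts on the 150 genes in injured week 2. They held 31.6% in uninjured week 2, 47.5% in injured week 3, 61.7% in injured week 4, 40.6% in uninjured week 4 and 56.1% in culture. The 5 genes with the most counts over all libraries held 33.45% in injured week 3, 53.5% in injured week 4 and 52.3% in culture. Without the 5 genes with the most counts over all libraries, the others held 1.35% ± 0.110 of all counts in injured and 1.15% ± 0.169 in uninjured week 2 (SD, n = 4 each).

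Injured exposure at week 4 was compared with week 3. The choice of the genes set a ceiling on both groups, which left little room for a fall from week 3. In injured week 3, 89 of the genes had under 1 CPM and 46 had 3 or fewer counts. The fit called 35 genes higher and 3 lower at week 4, beside 21.9% and 18.1% of all genes tested. These low levels limit the lower calls, so nothing is read from the balance of higher and lower calls. The 3 lower became 5 to 7 without injured week 3 replicate 2 or 4, uninjured week 3 replicate 3 or injured week 4 replicate 4. The sum was 2.25 times as large at week 4, with 0.0958% ± 0.0231 (SD, n = 4), as at week 3, with 0.0426% ± 0.00529 (SD, n = 3). Without the 5 genes with the most counts over all libraries it was 0.0444% ± 0.0114 at week 4 and 0.0283% ± 0.00561 at week 3.

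ENSRNOG00000022386 had the largest ratio of injured week 4 to week 3, taken after adding 1 CPM to both means. Its injured week 4 libraries had 22.3, 4.04, 11.2 and 10.3 CPM, and its 3 injured week 3 libraries used had 0.287, 0.291 and 0.953 CPM from 5 counts. These 2 groups did not overlap, and the left-out library had 2.77 CPM. Culture lay above both, at 61.6, 76.4, 76.9 and 109.43 CPM. Uninjured libraries had 611, 385, 662 and 344 CPM at week 3 and 614, 564, 530 and 440 CPM at week 4. At week 2 it had 698, 683, 654 and 631 CPM in injured libraries, against 628, 362, 637 and 1056 CPM in uninjured libraries.

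ENSRNOG00000015550, ranked 22, came second by that ratio, at 7.94, beside 7.55 for the next gene. Without the added 1 CPM that gene, with 14.8 CPM at week 4 and 1.09 CPM at week 3, stands before it. Its injured week 4 libraries had 30.5, 16.4, 19.7 and 23.5 CPM, and its 3 injured week 3 libraries used had 2.01, 2.62 and 1.27 CPM. Culture had 21.1, 34.1, 24.7 and 31.1 CPM, so injured week 4 and culture overlapped. Uninjured libraries had 575, 438, 831 and 335 CPM at week 3 and 1088, 821, 1237 and 949 CPM at week 4. At week 2 its injured libraries had 970, 1158, 1248 and 1300 CPM, against 955, 1205, 1047 and 1056 CPM in uninjured libraries, and the fit gave -0.02 on the log2 scale, with a 95% interval from -0.55 to 0.52. In the other direction the gene ranked 38 had the smallest ratio after adding 1 CPM, 0.353, with 2.96 CPM at week 4 and 10.2 CPM at week 3. Genes with fewer counts, such as that ranked 2, have smaller ratios without the added 1 CPM.

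Uninjured exposure at week 4 against week 3 gave 13 genes called higher and 18 lower, beside 5.81% and 6.11% of all genes tested. These counts rested on single libraries, and counts over all genes tested moved too. Without uninjured week 3 replicate 2, edgeR called 316 of 13549 higher and 233 lower, against 789 and 830 of 13586 with 19 libraries. Without uninjured week 3 replicate 1 it called 639 of 13490 higher and 602 lower. Among the 150 genes, 45 were lower without uninjured week 3 replicate 3. Without uninjured week 3 replicate 4 there were 3 higher and 1 lower. There were 4 higher and 2 lower without uninjured week 3 replicate 2 or uninjured week 4 replicate 1, and 8 higher and 10 lower without uninjured week 4 replicate 3. The lower calls also dropped to 2 without uninjured week 3 replicate 1, and to 10 or 11 without uninjured week 4 replicate 2 or 4, injured week 4 replicate 4, or culture replicate 1 or 2. The median log2(mean CPM + 1) difference was -0.25 over the 150 genes and 0.06 over the 18482.

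At weeks 3 and 4, uninjured libraries varied more on these genes than on others. At week 2 no such excess was seen, but those libraries were far shallower. The part of counting error in the spread was not computed, so the weeks are not compared in this. The median coefficient of variation was 33.9% over those of the 150 at 10 CPM or more in uninjured week 3 and 29.6% over those in uninjured week 4, against 18.8% and 17.6% over all genes at 10 CPM or more. At week 2 it was 66.9% in injured and 55.6% in uninjured exposure over these genes, against 77.3% and 64.9% over all genes at that level. The choice used group means and set no limit on this spread.

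On these genes 2 libraries were most often the lowest of their group, and their part in the spread was not computed. Uninjured week 3 replicate 3 was the lowest of its group for 76.7% of the 150 genes. The median deviation of its log2(CPM + 1) from the median of the other 3 libraries was -0.93, with quartiles at -1.52 and -0.28. Over all 8832 genes at 10 CPM or more the same library was lowest for 42.5%, with a median deviation of -0.09. For 10 of the 150 genes its CPM + 1 lay at least 8-fold below the median of the other 3, against 16 of those 8832 genes. Uninjured week 4 replicate 1 was the lowest of its group for 97 genes, with a median deviation of -0.61, against 26.8% and -0.03 over all 9104 genes at 10 CPM or more.

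In these 2 libraries the genes did not move as 1 block, nor did they in some other uninjured libraries. For the 74 genes under 1 CPM in culture, uninjured week 3 replicates 2 and 4 had median deviations of 0.14 and 0.16. For the 22 genes at 10 CPM or more they had -0.37 and -0.51. Uninjured week 4 replicate 4 had 0.28 and -0.36 for the same sets. The remaining libraries of uninjured weeks 3 and 4 had medians of the same sign in both sets. In uninjured week 3 replicate 3 the median deviation was -1.10 for the 74 genes under 1 CPM in culture, -0.78 for the 54 genes between 1 and 10 CPM, and 0.55 for the 22 genes at 10 CPM or more in culture. In uninjured week 4 replicate 1 the medians were -0.82, -0.52 and 0.24 for these 3 sets in the same order. Uninjured week 4 replicate 1 was lowest for 64 of the 74 genes and highest for 18 of the 22. Uninjured week 3 replicate 3 was lowest for 66 of the 74, while of the 22 it was highest for 12 and lowest for 8. The sum over all 150 genes hid this, since uninjured week 3 replicate 3 held 1.52% of its counts on them, beside 1.54% in replicate 4. Without the 5 genes with the most counts over all libraries it held 0.792%, against 1.36%, 1.22% and 1.18% in replicates 1, 2 and 4. These sets were formed after the values were seen and were not tested, and whether the makeup of these samples moved with them was not tested.

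**Figure D5:**
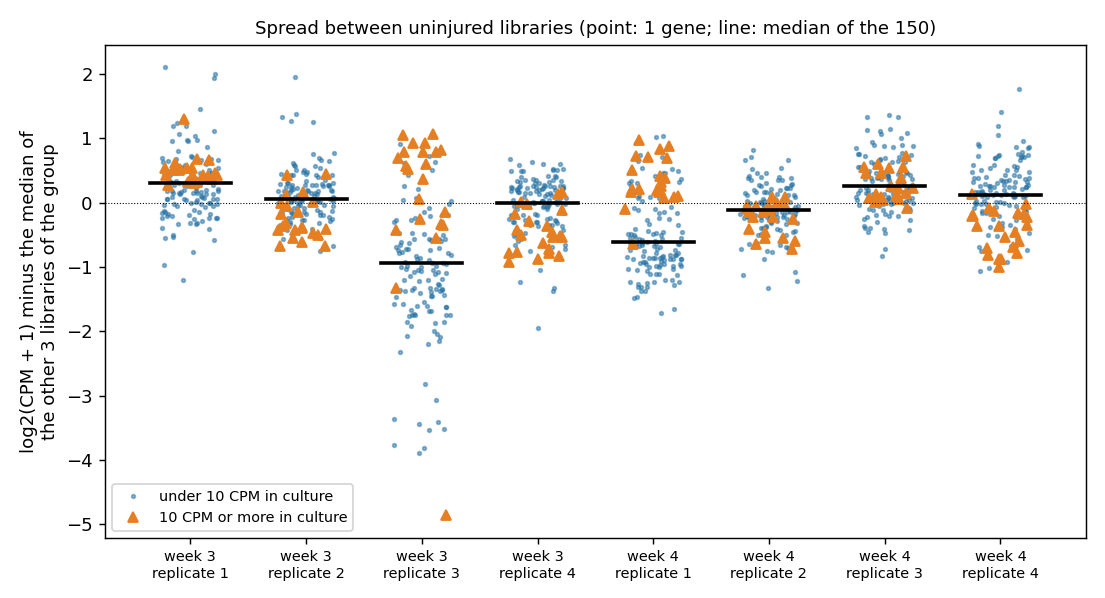
Deviation of each of the 150 genes in each uninjured week 3 and week 4 library from the median of the other 3 libraries of its group, in log2(CPM + 1), with the median as a line and genes at 10 CPM or more in culture as triangles. Week 3 replicate 3 and week 4 replicate 1 have medians of -0.93 and -0.61, with most triangles above 0.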

How the data were processed

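Values are whole-number counts, which the authors deposited without scaling in a single table. Per the labels' protocols, libraries were made from total RNA with a stranded kit for low input. Per the submitters' processing notes, the tools were featureCounts 1.5.1, STAR 2.5.1, StringTie 1.3.3, Picard, FastQC 0.11.5 and Trim Galore 0.4.1, and the build named is GRCm38, a mouse build, while the identifiers are rat. For the genome aligned to, the annotation and the strand setting nothing is given in the sources used here, so that counts of genes with close copies or overlapping neighbours are uncertain. Library totals ran from 84532 to 6908508 counts.

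CPM used column totals. The 150 genes, the lists and the rules were chosen with earlier results of these data known. Where the rule's limits are read without the added 1 CPM, 145 of the 150 genes remained. Tests used edgeR 4.0.16 in R 4.3.3 (quasi-likelihood, robust, TMM, filterByExpr) with Benjamini-Hochberg adjustment, in 1 fit of the 8 week 2 libraries and 1 of 19 libraries of culture and weeks 3 and 4. Each was tested on simulated data. DESeq2 1.42.0, RLE factors, other filters, other library sets and leaving out each library were alternatives. Of 32545 identifiers 0 matched a symbol, so the naming rule, which took the largest ratios, the limit of the choice and the extremes at week 2 and between injured weeks, was applied by rank, with 2 identifiers each way. Since nothing says that libraries came from separate animals or cultures, p-values measure the spread between libraries, possibly technical. Replicates are numbered by accession order. Intervals cover counting error only where a share of counts is given.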

Additional observations from a re-analysis of the deposited data

Results flagged for a closer look

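Dixon's ratio of the gap to the range was computed in 42 groups of 4 libraries. It passed its 95% limit in 3 of them, and about 2.1 would do so by chance. ENSRNOG00000011154 was low in uninjured week 3 replicate 3, at 165 CPM, while the other 3 libraries had 533 to 560 CPM. The same gene was high in culture replicate 4, at 1.74 CPM from 12 counts. The share of counts held by the 150 genes, without the 5 with the most counts over all libraries, was high in uninjured week 4 replicate 3. It was 1.21%, while the other 3 libraries had 1.02% to 1.04%.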

How the results depend on the processing

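No paired analysis was possible because the labels carry no replicate numbers. Alternatives were compared with the main setting by the size of each value only, and a reversal of direction was not looked for. Among the 150 genes, the week 2 calls of injured against uninjured numbered 0 with RLE factors, DESeq2, no low count filter and every left-out library, 4 with 27 libraries in 1 fit and 2 with 28. The calls of injured against uninjured and uninjured against culture at weeks 3 and 4 were 150 under every alternative and every left-out library. Between uninjured weeks 4 and 3, 22 of the 150 were called higher and 38 lower with no low count filter. With injured week 3 replicate 3 included there were 2 and 0, and with 27 libraries 1 and 1. Over all genes the counts were 1298 and 961 of 25442, 203 and 207 of 13348, and 63 and 12 of 14282. Leaving out 1 library gave 3 to 18 higher and 1 to 45 lower among the 150. Between injured weeks 4 and 3, lower calls among the 150 were 14, 10 and 1 under the same settings and 8 with DESeq2. Over all genes they were 2381 of 25442, 1707 of 13348, 1110 of 14282 and 2831 of 25442. Leaving out 1 library gave 28 to 38 higher and 2 to 7 lower among the 150. Against culture, leaving out 1 library gave 3 to 15 higher and 31 to 35 lower in injured week 3, and 15 to 27 higher and 25 to 31 lower in injured week 4, and the 3 came without injured week 3 replicate 1. Without that replicate, 2035 of all 13924 genes tested were called higher than in culture, against 2502 of 13586 with it. The cause of these moves was not tested.

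The choice kept 143 with a pseudocount of 0.1, 138 with group medians and 139 to 150 without 1 library, and more than 143 with TMM-scaled CPM or with injured week 3 replicate 3. With TMM-scaled library sizes the summed share was 1.74% in injured week 2, with libraries between 1.27% and 2.10%, which overlapped the 1.39% to 1.90% of uninjured week 2. The gene lists, cell type markers and promoter motifs were not run, since no identifier matched a symbol. Removing the 5 genes with the most counts over all libraries lowers a sum by construction. Without them the summed share was 1.35% in injured and 1.15% in uninjured week 2, and 0.0283% and 1.14% at week 3. At week 4 it was 0.0444% and 1.07%, and in culture 0.0687%. Leaving out 1 library gave 1.88% to 2.01% in injured and 1.55% to 1.80% in uninjured week 2, 0.0396% to 0.0446% and 1.56% to 1.70% at week 3, 0.0845% to 0.101% and 1.75% to 1.84% at week 4, and 0.134% to 0.153% in culture. Depth limits week 2, where 49 of the 150 genes did not pass the low count filter.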
